A study of Rattus norvegicus with 18 samples.

Results

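Gene desert peaks are the regions of 5-hydroxymethylcytosine (5hmC) enrichment that the authors' deposited peak list labels as lying in gene deserts, a class whose definition the sources used here do not give. All such peaks on chromosomes 1 to 20 were taken, which gave 3126 of the 215951 peaks of the list (1.45%), and 81 further ones on X were set aside. No measured level entered this choice among the listed peaks. The list itself holds peaks of hMeDIP signal, and the sources used here do not say in which libraries they were called. The cells were primary rat Schwann cells, the glia that wrap and myelinate peripheral axons, at passage 3. Control cells received no vitamin C and treated cells received vitamin C, and both groups were otherwise described alike. The sources used here give neither the strain, age and sex of the animals nor the dose and duration of treatment. For each of hMeDIP (DNA precipitated for 5hmC), unprecipitated input DNA and RNA there were 3 libraries of control cells and 3 of treated cells. No label states whether the 3 libraries of a group stem from different cultures or animals, so every p-value here refers to the spread between libraries, part or all of which may be technical.

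5hmC is made from 5-methylcytosine by the TET dioxygenases, which use iron and are stimulated by vitamin C, and it is both an intermediate of DNA demethylation and a lasting mark. In most tissues it is found mainly along transcribed genes and at enhancers and is sparse in long stretches without genes. Gene deserts are such stretches. Many are late replicating and compact, and some hold distant enhancers of the developmental genes at their edges.

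The hMeDIP libraries held between 24020306 and 39899445 reads in peaks, which was 30.8% to 35.7% of its counted reads in controls and 40.8% to 43.9% with vitamin C. Input libraries had 7201638 to 9521037 reads in peaks. The share of hMeDIP reads in peaks was therefore higher with vitamin C, and counts of calls are given with 2 scalings. TMM scaling centres the bulk of peaks at no change, and scaling by all counted reads leaves a shift shared by peaks in place (median change of all peaks 0.04 and 0.47 on the log2 scale). The Schwann cell markers Sox10, S100b, Erbb3, Ngfr and Cdh19 had at least 13924 RNA reads each in every library. Of 15 fibroblast, macrophage, endothelial, mural and neuronal markers with a match in the table, Pdgfrb had 1206 to 3220 reads and the others 0 to 87 reads per library, with Dcn and Cdh5 at 0. In hMeDIP, replicates 1 and 3 of each group differed over peaks by no more than sampling noise (chi-square per degree of freedom 0.96 in controls and 0.90 with vitamin C, against 1.08 to 1.47 for the other pairs), but their shares of reads in peaks were 31.7% and 35.7% in controls and 41.4% and 40.8% with vitamin C. They were kept as separate libraries.

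Gene desert peaks took a smaller share of the hMeDIP reads in peaks in every vitamin C library than in any control. They held 1.12%, 1.17% and 1.08% of the reads in peaks in the 3 control libraries and 0.822%, 0.791% and 0.839% in the 3 vitamin C libraries. The group means were 1.13% ± 0.0449 and 0.817% ± 0.0241 (SD, n = 3). An exact two-sided permutation test gave p = 0.1, the smallest that 3 against 3 allows (adjusted p = 0.127 over 14 such tests of desert shares and ratios). As a share of all counted reads the difference was small, with 0.356%, 0.362% and 0.387% in controls and 0.340%, 0.347% and 0.342% with vitamin C (exact permutation p = 0.1), and the lowest control and the highest treated library were close. In input DNA the share of in-peak reads was 1.07% ± 0.0130 in controls and 1.09% ± 0.00711 with vitamin C (n = 3 per group). These groups did not overlap either, with the same exact permutation p = 0.1 and in the opposite direction.

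Single peaks were tested with edgeR's quasi-likelihood F test with Benjamini-Hochberg adjustment over all peaks, at an adjusted p of 0.05. All 3126 gene desert peaks were tested. With TMM scaling 2133 of them (68.2%) were lower with vitamin C and 526 (16.8%) were higher, and 467 were not called. Over all peaks of the list 37.7% were lower and 37.7% higher. The median log2 change was -0.96 for gene desert peaks and -0.09 for the 101586 other intergenic peaks, of which 44.3% were lower and 30.9% higher. Of the gene desert peaks, 1464 were lower by more than 1 on the log2 scale and 27 higher by more than 1, and the changes ran from -2.94 to 1.46. Scaled by all counted reads, 1864 gene desert peaks (59.6%) were lower and 955 (30.6%) higher with a median of -0.54, against 24.5% lower and 60.9% higher over all peaks. The direction of most peaks therefore did not rest on the scaling, as 1864 peaks were lower and 526 higher in both, whereas 15 peaks that were lower by TMM were higher by all counted reads. With replicates 1 and 3 of each group summed, 2099 were lower and 497 higher (all peaks 36.3% and 36.9%), and DESeq2 on the separate libraries gave 2068 and 363 (all peaks 34.9% and 29.5%).

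The deposited list consists of 2 successive runs, each of which passes through the chromosomes and is sorted by position within them, of 68432 and 147519 peaks. The sources used here do not say how the runs arose. If they hold peaks called in different groups of libraries, the direction within a run, and with it the count over both, would be set in part by how the peaks were chosen. This was not tested. Of the gene desert peaks, 2011 (64.3%) stood in the first run, compared with 37.8% of other intergenic peaks and 31.7% of all peaks. Gene desert peaks made up 3.03% of the autosomal peaks of the first run and 0.761% of those of the second. In the first run 1948 (96.9%) were lower and 15 (0.746%) higher, with a median of -1.12. In the second run 185 of 1115 (16.6%) were lower and 511 (45.8%) higher, with a median of 0.22. Scaled by all counted reads the medians were -0.70 and 0.65, and 80.5% of the second run was higher. Other intergenic peaks had medians of -1.02 and 0.23 in the same runs with TMM scaling.

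**Figure D1:**
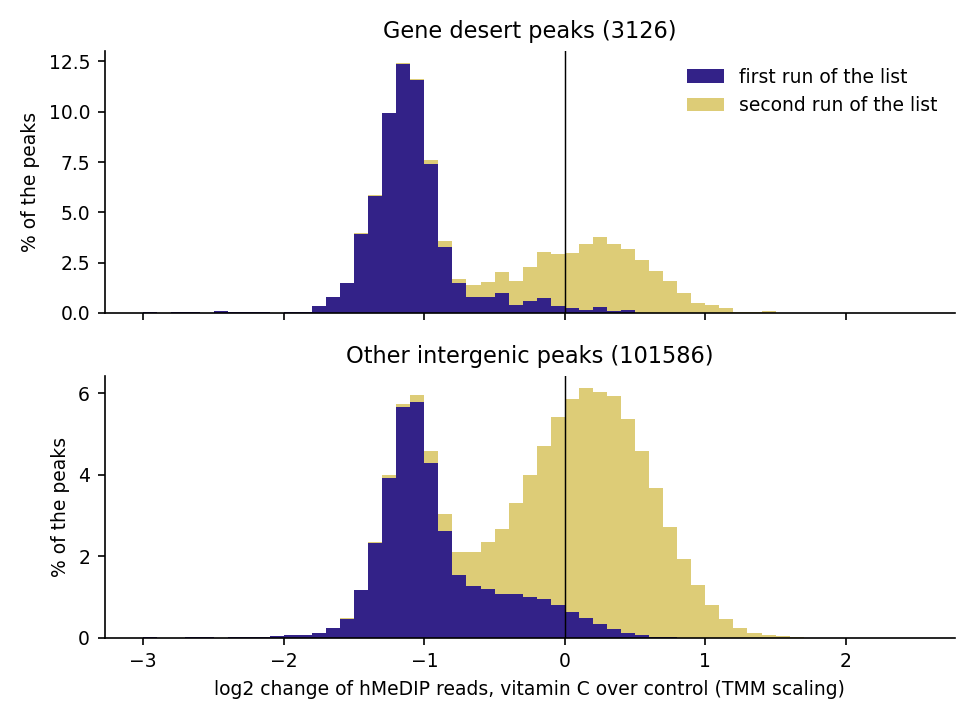
Distribution of the log2 change in hMeDIP reads (x axis, vitamin C over control, TMM scaling) over gene desert peaks (top) and other intergenic peaks (bottom), as percent of the peaks of each class (y axis), stacked by run of the list. Both classes have a mode near -1 made of the first run, and in gene desert peaks, whose median is -0.96, that mode holds most of the peaks.

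The summed signal followed the same split. Gene desert peaks of the first run took 0.234%, 0.243% and 0.246% of all counted hMeDIP reads in controls and 0.162%, 0.159% and 0.164% with vitamin C. Those of the second run took 0.123%, 0.118% and 0.141% in controls and 0.178%, 0.188% and 0.178% with vitamin C. In each run the groups did not overlap, and the 2 runs differed in opposite directions (exact permutation p = 0.1 for each). The log2 ratio of reads in gene desert peaks to reads in other intergenic peaks was lower with vitamin C by 0.36 over both runs (from -5.36 ± 0.0497 to -5.73 ± 0.0387, n = 3). Within the first run this difference was -0.26, and within the second it was -0.02 (-6.18 ± 0.00877 against -6.21 ± 0.0183), each with an exact permutation p = 0.1. The difference over both runs was larger than that within either, and the 2 classes are made up of the runs in unequal parts, as given above.

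**Figure D2:**
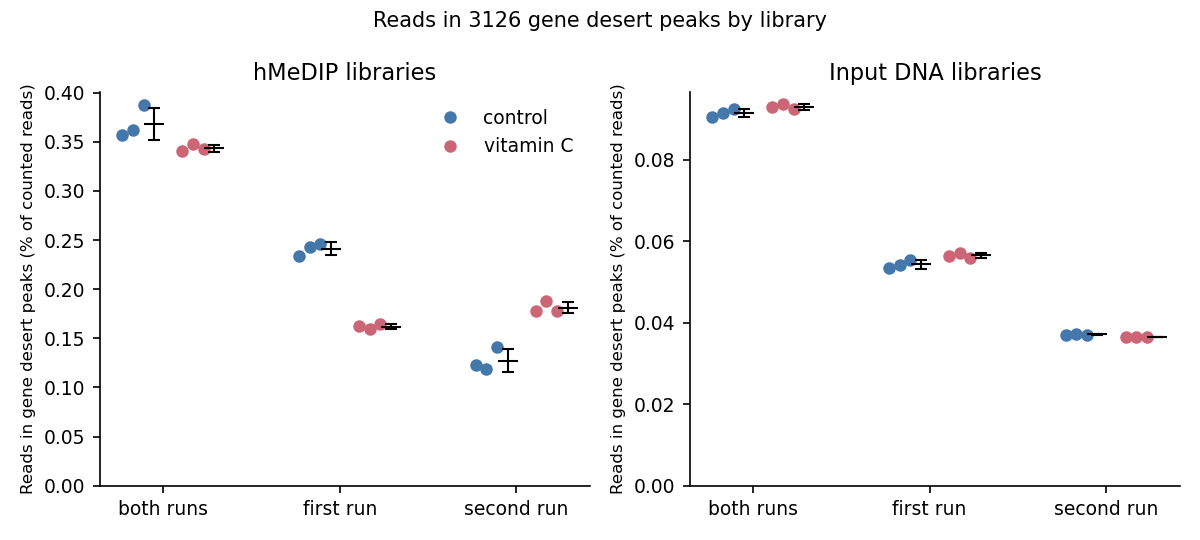
Reads in gene desert peaks as percent of all counted reads (y axis) in each hMeDIP (left) and input (right) library, for all gene desert peaks and for each run of the list. Dots are libraries and bars are mean ± SD of 3; the hMeDIP means went from 0.241% to 0.162% in the first run and from 0.127% to 0.181% in the second, and the input means from 0.0544% to 0.0566% and from 0.0371% to 0.0365%.

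No gene desert peak was called in input DNA. Of 3118 with enough input reads to be tested (8 had too few), 0 were lower and 0 higher in edgeR (0% of all peaks in each direction), with 184 (5.90%) at an unadjusted p under 0.05 against 4.86% of all peaks tested. DESeq2 also called 0 in each direction, with 30 at an unadjusted p under 0.05. A gene desert peak had a median of 21 to 28 input reads per library and 67 to 93 hMeDIP reads, so small input changes were not detectable in single peaks. The median input change was 0.06 in the first run and -0.01 in the second. Enrichment was computed as the ratio of hMeDIP to input CPM by all counted reads. Its median over first-run gene desert peaks was 4.28 in controls and 2.61 with vitamin C, and over second-run peaks it was 2.99 and 4.58. It was lower with vitamin C in 94.5% of the first-run peaks and higher in 90.4% of the second-run peaks. In a joint fit of both assays in edgeR, enrichment fell in 1885 gene desert peaks (60.3%, all peaks 28.3%) and rose in 250 (8.0%, all peaks 21.6%). With all counted reads it fell in 1324 and rose in 662. The share over all peaks is not given for that scaling, so these counts cannot be set against it.

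Long stretches without listed genes surrounded most of these peaks. The median distance to the nearest transcript that the peak list names was 488 kb, and 97.8% of the peaks lay in an interval of more than 1000 kb without such a transcript, against 9.98% of a sample of other intergenic peaks. Transcripts to which no peak was assigned are not seen by this measure. The share of lower peaks was larger deeper in a desert, which is given as a description without a test. Within 200 kb of a listed transcript 56.1% of 617 were lower and 24.5% higher, and beyond 1000 kb 86.2% of 530 were lower and 7.17% higher. With all counted reads these shares were 43.8% and 42.8% near a transcript and 82.3% and 13.2% beyond 1000 kb. The share from the first run went from 50.4% to 84.7% between the same bins. Within the first run the share lower was 94.5% within 200 kb and 99.3% beyond 1000 kb (83.6% and 96.7% with all counted reads). Within the second run the share higher was 47.4% within 200 kb and 45.7% beyond 1000 kb (80.7% and 82.7% with all counted reads).

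Gene desert peaks were narrow, with a median of 443 bp (range 270 to 3162) against 608 bp for other intergenic peaks, and they covered 1720 kb in all. The share lower was larger among the narrow ones. Up to 350 bp, 90.5% of 547 peaks were lower, and above 1200 bp 44.8% of 134 were lower and 33.6% higher. With scaling by all counted reads the bins above 800 bp turned. At 800 to 1200 bp 25.2% were lower and 54.1% higher (45.2% and 26.9% with TMM), and above 1200 bp 9.70% and 64.9%. Other intergenic peaks took the same course with TMM scaling, with 80.8% lower up to 350 bp and 33.0% above 1200 bp. First-run peaks had a median width of 400 bp and second-run peaks of 570 bp. Among first-run peaks the share lower with TMM scaling went from 100% up to 350 bp to 71.4% of 28 peaks above 1200 bp. In the second run it went the other way, from 3.70% to 37.7%. With all counted reads the first-run share lower went from 99.0% to 32.1%, with 46.4% higher above 1200 bp. The second-run share lower then went only from 1.85% to 3.77%.

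The shares also varied with the number of other peaks nearby. Peaks with 0 to 2 peaks of any class within 50 kb numbered 1268, of which 91.8% were lower and 3.47% higher, with a median change of -1.13. With 11 to 20 neighbours, 39.7% of 567 were lower and 34.2% higher. In the densest neighbourhoods, of 21 to 40 peaks, 21 of 80 (26.2%) were lower and 43 (53.8%) higher. With all counted reads 88.6% were still lower at 0 to 2 neighbours, but more peaks were higher than lower from 6 neighbours on (203 lower and 280 higher of 570 at 6 to 10, and 136 and 333 at 11 to 20). Other intergenic peaks took nearly the same course, with 87.0% lower at 0 to 2 neighbours and 29.7% at 21 to 40. Gene desert peaks had a median of 3 neighbours and other intergenic peaks 13. Within the first run the share lower went from 99.3% to 86.7% over these bins with TMM scaling, the last bin holding 15 peaks. With all counted reads it went from 97.0% to 73.3%. Within the second run the share higher went from 37.7% to 64.6% with TMM scaling and from 81.6% to 89.2% with all counted reads. These shares are descriptions, since neighbouring peaks share libraries and local DNA.

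**Figure D3:**
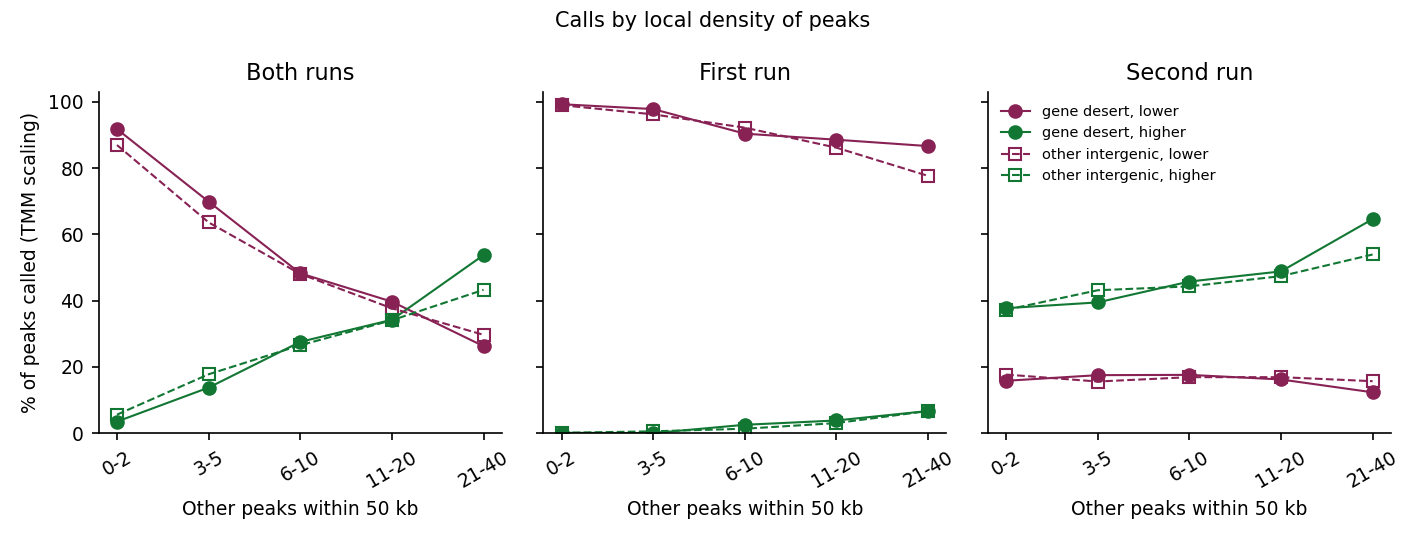
Percent of peaks called lower or higher with TMM scaling (y axis) by the number of other peaks within 50 kb (x axis), for gene desert peaks (filled, solid lines) and other intergenic peaks (open, dashed lines), over both runs of the list and in each. Over both runs the lower share of gene desert peaks drops from 91.8% to 26.2%, and the 2 classes lie close to each other in most bins.

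Gene desert peaks were strung along the chromosomes in groups. When neighbours at most 100 kb apart were joined, 241 clusters of at least 3 peaks held 2843 of them (90.9%), and 125 peaks stood alone. In 153 clusters every peak was lower, in 0 every peak was higher, and 68 clusters held both directions (144, 0 and 86 with all counted reads). Solitary peaks were lower in 95.2% of cases, peaks of clusters of 3 to 9 in 91.9%, and the 1346 peaks of the 20 clusters of 30 or more in 46.7%, with 29.3% higher. For these large clusters the balance turned with all counted reads, to 34.0% lower and 51.3% higher. The share from the first run differed between the same sizes. It was 93.6% for solitary peaks, 91.1% in clusters of 3 to 9 and 40.7% in clusters of 30 or more. Neighbours at most 100 kb apart were also compared in pairs. Of 1179 pairs with both peaks in the first run, 96.2% were both lower (90.2% with all counted reads). Single gene desert peaks of the first run were lower in 96.9% of cases (91.2% with all counted reads). A high share of such pairs is therefore given by the run alone, and likeness of neighbours beyond it was not tested. Of 858 neighbouring pairs with 1 peak in each run, 343 had opposite calls (539 with all counted reads), and their median gap was 7.63 kb. Single gene desert peaks of the second run were higher in 45.8% of cases (80.5% with all counted reads). Whether neighbours across runs differ more or less than their runs was not tested. Over all 2681 such pairs, 451 (16.8%) had opposite calls (601 with all counted reads). Of the 644 pairs with both peaks in the second run, 100 (15.5%) did (29 with all counted reads). Because the runs differ in direction, opposite calls in pairs across runs follow in part from how those pairs were picked. The pairs come from groups of every size, not from the large clusters alone.

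The 4 largest clusters each spanned more than 1000 kb. The first, on chromosome 19 from 46783453 to 47925463, held 188 peaks, of which 75 were lower and 77 higher (median 0.02; 49 and 112 with all counted reads), and it began 40.4 kb from Clec3a. The next, of 179 peaks with 58 lower and 68 higher (42 and 116 with all counted reads), lay on chromosome 3 from 134714188 to 136359683, 17.5 kb from Flrt3, which encodes a membrane protein of cell adhesion and axon guidance. A second cluster on chromosome 19 (39688452 to 40836624) held 132 peaks, 62 lower and 38 higher (43 and 71 with all counted reads), between Psmd7, a proteasome subunit, and Il34. The fourth, on chromosome 15 from 9094069 to 10103792, held 89 peaks, 42 lower and 27 higher (31 and 47 with all counted reads). The balance of the last 2 thus turned with the scaling. The fourth cluster filled the interval between Thrb and Rarb, the genes of a thyroid hormone receptor and a retinoic acid receptor, starting 7.79 kb from the one and ending 16.4 kb from the other. The largest cluster of chromosome 13 (17079060 to 17494977) held 15 peaks, and all 15 were lower under both scalings (-1.52 to -0.79 with TMM). All 15 stood in the first run of the list, against 31.4% of the 188 peaks on chromosome 19. Another chromosome 13 cluster (32441533 to 32681396), of 13 peaks with 38.5% in the first run, held 4 lower and 4 higher (3 and 9 with all counted reads). Positions are printed as deposited, and the sources used here do not name their genome build.

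**Figure D4:**
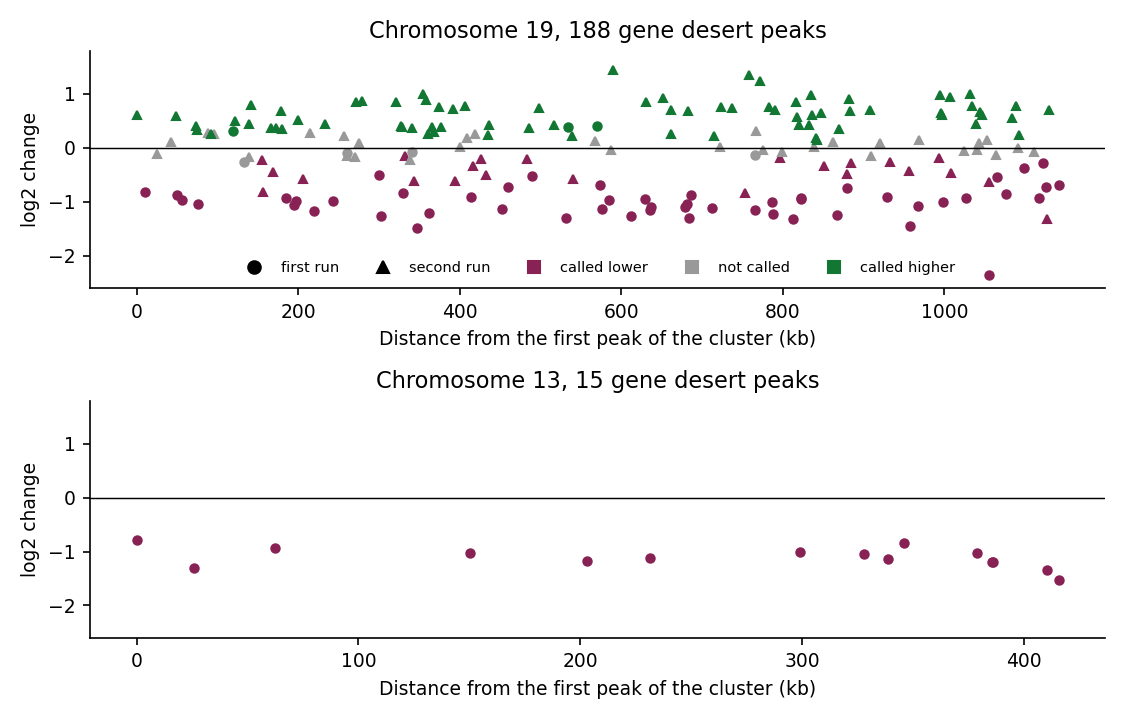
log2 change of hMeDIP reads (y axis, vitamin C over control, TMM scaling) against distance from the first peak in kb (x axis) for the largest gene desert cluster of chromosome 19 and of chromosome 13; shape gives the run of the list and colour the call. Lower and higher peaks occur side by side along chromosome 19 (75 and 77 of 188). All 15 peaks on chromosome 13 are lower, and all stood in the first run.

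Shares varied by chromosome. Gene desert peaks occurred on 19 chromosomes and not on chromosome 12, and the 5 chromosomes with most held 50.9% of them. On all 19, more were lower than higher with TMM scaling, and on 14 with all counted reads, the exceptions being chromosomes 3, 8, 14, 18 and 19. Other intergenic peaks, too, were more often lower than higher on every chromosome with TMM scaling (40.1% to 48.3% lower and 27.9% to 34.4% higher). Chromosome 13 had the highest share lower, 276 of 292 (94.5%), with 94.2% of its gene desert peaks in the first run, although 48.3% of its other intergenic peaks were lower. Chromosome 14 had the lowest share lower, 65 of 134 (48.5%), with 42 (31.3%) higher and 43.3% in the first run (52 lower and 65 higher with all counted reads). Chromosome 19 was richest in gene desert peaks, with 385, which was 6.23% of its peaks, and 188 of these were lower and 122 higher. Scaled by all counted reads it held 139 lower and 196 higher. Within runs the chromosomes lay closer together. First-run medians lay between -1.18 and -1.04 on every chromosome, and second-run medians between -0.10 and 0.38.

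Of the peaks with the smallest p among those lower, the first lay on chromosome 3 (99930254 to 99931757), 252 kb from Mettl15, a mitochondrial RNA methyltransferase gene. Its control libraries had 15.2, 15.7 and 14.2 CPM and its vitamin C libraries 5.92, 5.67 and 6.38 CPM with TMM scaling (-1.32 ± 0.07, SE, edgeR adjusted p = 3.60e-23). A peak inside the cluster between Thrb and Rarb (chromosome 15, 9967839 to 9968801) had 13.2, 13.3 and 13.7 CPM in controls and 5.62, 5.02 and 5.67 CPM with vitamin C (-1.30 ± 0.07, edgeR adjusted p = 2.67e-22). It stood in the second run of the list, where most called peaks were higher. The steepest fall of the 6 was on chromosome 13 (38301795 to 38302384), between Htr5b and Dpp10, both 0 to 2 RNA reads per library. This peak went from 7.33, 7.10 and 6.76 CPM to 1.72, 1.72 and 2.07 CPM (-1.93 ± 0.11, edgeR adjusted p = 1.32e-21), and its enrichment over input from 8.80 to 2.41. Peaks on chromosome 8 (34007859 to 34008729, 128 kb from Ets1, -1.65 ± 0.09), on chromosome 3 (41834938 to 41836074, -1.17 ± 0.07) and in the largest cluster of chromosome 19 (47130848 to 47131794, -1.49 ± 0.08) completed the 6. None of the 6 differed in input at an unadjusted p under 0.05. Of the genes beside these lower peaks, only Ets1, Rarb, Mettl15, Galnt13 and Nr4a2 had enough RNA reads to be tested. None of these was lower in RNA. Ets1 RNA rose (0.83 ± 0.07, edgeR adjusted p = 2.81e-05), as did that of Rarb, 151 kb from the second peak (0.88 ± 0.15, edgeR adjusted p = 0.00220). Rarb also lay beside a higher peak described below. Mettl15 (0.80 ± 0.29, edgeR adjusted p = 0.0573), Galnt13 (0.008 ± 0.19, edgeR adjusted p = 0.978) and Nr4a2 (0.18 ± 0.17, edgeR adjusted p = 0.420) did not pass.

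Among peaks that were higher, the first lay 20.7 kb from Cdh19, which encodes a cadherin of the Schwann cell lineage (chromosome 13, 32447899 to 32449341). Its controls had 8.99, 8.79 and 9.60 CPM and its vitamin C libraries 17.7, 16.8 and 17.2 CPM (0.91 ± 0.06, edgeR adjusted p = 6.33e-19), and its enrichment over input went from 3.85 to 10.2. Cdh19 RNA rose too, from 741 ± 87.8 to 1177 ± 51.7 CPM (0.67 ± 0.09, edgeR adjusted p = 0.000483). The next lay 17.8 kb from Rarb (chromosome 15, 10101126 to 10102446), in the same cluster as the lower peak above, with 3.91, 3.98 and 4.19 CPM in controls and 9.01, 8.91 and 8.71 CPM with vitamin C (1.13 ± 0.08, edgeR adjusted p = 4.78e-17). Rarb RNA rose from 7.32 ± 0.528 to 13.5 ± 2.90 CPM (0.88 ± 0.15, edgeR adjusted p = 0.00220), while Thrb at the other end had 2 to 9 reads per library. The third, on chromosome 7 (89894559 to 89895873), lay 195 kb from Trps1, a GATA-type repressor gene, and went from 4.79 ± 0.318 to 8.75 ± 0.537 CPM (0.87 ± 0.08). Trps1 RNA did not pass (0.59 ± 0.23, edgeR adjusted p = 0.0736). A pair in the largest chromosome 19 cluster (47618554 to 47619841 and 47555419 to 47556092) changed by 0.98 ± 0.09 and 1.23 ± 0.12, and the largest rise of the 6, on chromosome 14 (54649020 to 54649501), was from 1.14 ± 0.137 to 3.12 ± 0.0832 CPM (1.46 ± 0.15). In input DNA 0 of these 6 had an unadjusted p under 0.05.

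**Figure D5:**
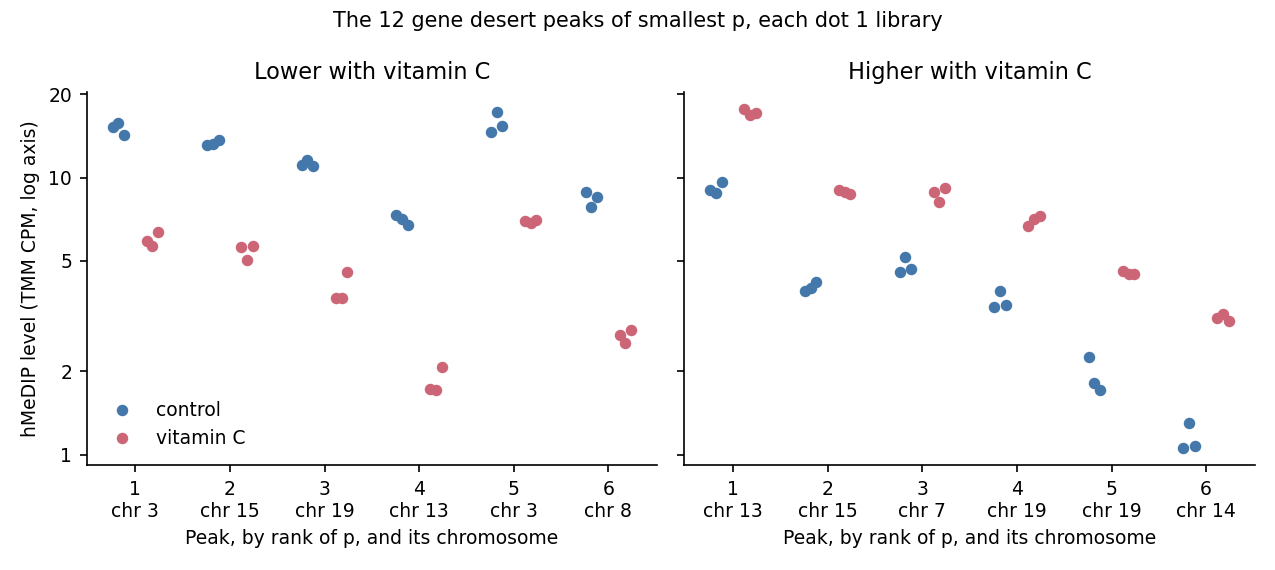
hMeDIP level in TMM CPM (y axis, log scale) in each library for the 6 gene desert peaks of smallest p among those lower (left) and among those higher (right), in order of p and labelled by chromosome. Each dot is 1 library; the peaks were chosen among those whose groups do not overlap, so the gap between the groups in all 12 is set by that choice.

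The peaks with the highest control level per kb were 352 to 650 bp wide and unlike those above in their input. The 4 of them, on chromosomes 1 and 2, had 18.5 to 26.1 CPM per kb in controls and 8.62 to 12.1 with vitamin C, and all stood in the first run. The highest (chromosome 1, 181564191 to 181564581) went from 9.81, 11.8 and 8.96 CPM to 5.51, 4.13 and 4.55 CPM (-1.09 ± 0.09). It also had 87 to 119 input reads in 390 bp, and its enrichment was 3.01 in controls and 2.0 with vitamin C. Enrichment of the 4 in controls was 3.01 to 4.69, around the median of 3.97 for gene desert peaks. The peak on chromosome 2 from 99658576 to 99658928 was higher in input with vitamin C (0.36, edgeR unadjusted p = 0.0128). With TMM scaling the 3 widest peaks changed little. The widest, of 3162 bp on chromosome 19 (40437624 to 40440786), changed by 0.28 ± 0.06, and by 0.71 when scaled by all counted reads. Its input changed by 0.21 (edgeR unadjusted p = 0.0312). Its enrichment over input did not pass in the joint fit (0.07, edgeR adjusted p = 0.623). The next, on chromosome 7 (39901375 to 39904348) and chromosome 5 (37085191 to 37087995), changed by -0.12 ± 0.05 and -0.29 ± 0.07 with TMM but by 0.31 and 0.13 when scaled by all counted reads, so their sign depended on the scaling.

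No gene is assigned to a gene desert peak in the list, so the nearest listed transcript on each side was used to look at RNA, a choice made after the files were seen. This named 181 genes at the edges of the deserts, of which 81 had enough reads to be tested. Of these, 27 (33.3%) rose and 7 (8.64%) fell, against 19.1% and 21% of all genes tested, with a median log2 change of 0.24 against -0.01. Leaving out each library in turn gave 18 to 32 genes that rose and 4 to 7 that fell (4 without control replicate 2). Shares over all genes are not given for those fits. Vitamin C replicate 1 stood apart from the other 2 treated RNA libraries (chi-square over degrees of freedom 27.4 and 38.3, against 5.26 between those 2), and without it 29 rose and 7 fell. Those that rose included Cadm2, a synaptic and glial adhesion molecule (from 3.71 ± 0.456 to 33.5 ± 8.23 CPM, 3.16 ± 0.19), and the transcription factor Ets1, whose controls had 262, 256 and 238 CPM and whose treated libraries had 475, 451 and 421 CPM (0.83 ± 0.07, edgeR adjusted p = 2.81e-05). Slit2, a secreted guidance cue (0.97 ± 0.11), and Stim2, a calcium sensor of the endoplasmic reticulum (0.56 ± 0.07), also rose. Those that fell included Flrt3, from 242, 277 and 265 CPM to 79.7, 94.5 and 97.4 CPM (-1.53 ± 0.09, edgeR adjusted p = 6.44e-06), and the prohormone convertase gene Pcsk1 (-2.71 ± 0.09). The cadherin gene Cdh6 (-1.39 ± 0.10) and the arrestin family gene Arrdc3 (-0.78 ± 0.13) fell as well.

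At the edges of the large clusters, genes stood beside peaks of both directions. Flrt3 RNA fell beside a cluster with 58 lower and 68 higher peaks. Rarb RNA rose beside one with 42 lower and 27 higher with TMM scaling, and 31 lower and 47 higher with all counted reads. Psmd7 fell by 0.25 on the log2 scale (from 124 ± 2.83 to 105 ± 6.71 CPM, edgeR adjusted p = 0.0142), and Clec3a, Il34 and Thrb had at most 9 reads in any library. Whether any of these peaks acts on a gene was not measured.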

How the data were processed

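Raw read counts per peak (hMeDIP, input) and per gene (RNA) were deposited by the authors, with a list of peak positions and features. BWA, STAR, HTSeq, Trim Galore and CASAVA 1.4 are named, without roles, in the submitters' processing notes. The sources used here give no genome build, peak caller or definition of a gene desert. Groups came from the labels. Each assay was fitted over all its peaks or genes with edgeR 4.0.16 (default filter, TMM, quasi-likelihood F test, Benjamini-Hochberg adjustment at 0.05, treatment as the only term), and a joint fit of hMeDIP and input tested their interaction. Entries that name no peak entered only the total of all counted reads. Library shares were compared by exact permutation. The edgeR step was tested on simulated data. Alternatives were other scalings, DESeq2 1.42.0, no filter, summed libraries, a replicate block, libraries left out and other cluster rules. The rule for names took 6 lower and 6 higher peaks by smallest p (no overlap, same sign under both scalings), the 4 of highest control level per kb, the 3 widest, the 4 largest clusters, the extreme chromosomes, and the 4 RNA genes of smallest p per direction averaging 3 or more in log2 CPM. Cdh19, Trps1, Mettl15, Rarb, Galnt13, Nr4a2, Htr5b, Dpp10 and the chromosome 13 clusters were named in addition, with their values known. The members and lists were chosen with earlier results of these data known. Tables and figures were made with scipy 1.17.1, pandas 2.3.3, numpy 2.4.6 and matplotlib 3.10.9 in Python 3.11.15.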

Additional observations from a re-analysis of the deposited data

How the results depend on the processing

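Scaling by all counted reads gave 955 gene desert peaks higher, a median of -0.54 and 662 peaks whose enrichment over input rose. By run of the list it gave 57 higher and a median of -0.70 in the first, and 29 lower, 898 higher and a median of 0.65 in the second. Joining peaks over 250 kb gave 127 clusters and asking for at least 5 peaks gave 149, while a gap of 50 kb gave 276 against 241. Leaving out 1 library at a time, the median ran from -1.02 to -0.88, that of the first run from -1.20 to -1.04, and the nearest genes whose RNA fell from 4 to 7 (4 without control replicate 2). For these the cause was not tested. The results by run and on nearest genes, and their alternatives, were chosen after seeing the data. The median change over both runs and in the first stayed below 0 and that of the second above 0 in these alternatives, but the balance of lower and higher calls turned with all counted reads on 5 of 19 chromosomes and in 23 of 241 clusters. Replicates with the same number did not deviate together (r = -0.03, -0.20 and -0.11 for hMeDIP), so the numbers were not used as pairs. With the replicate number as a block, 2111 gene desert peaks were lower and 490 higher, enrichment fell in 1888 and rose in 254, and 30 nearest genes rose and 7 fell. Shares over all peaks and genes are not given for the block fits. For the share of reads in peaks the block allows no exact permutation p below 0.25. DESeq2 gave 2068 lower and 363 higher. The planned counts of RNA genes named by a gene desert peak were not run, because the list assigns these peaks no gene. With 3 libraries per group no permutation test could reach 0.05, and counts cover no error before sequencing.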
